A study of Caenorhabditis elegans with 2 samples.

Results

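The regions described here are the REC-8::GFP peaks in the 2 Mb at the meiotic pairing-centre end of 5 Caenorhabditis elegans chromosomes, namely the left end of II, III, IV and X and the right end of V. A peak was a member when its summit lay in such an end on the WBcel235 assembly, which is ce11. Of the 18953 peaks called on the reads of both replicates together, 1572 were members (8.29%), where the 5 ends make up 9.97% of the nuclear chromosomes. By its deposited title this list holds background as well as peaks, and 606 of its entries (3.2%) are in the authors' reproducible set. Counts from it are thus of called regions, not of established REC-8 binding sites. The 2 Mb at the opposite end of the same chromosomes, with 1923 peaks, served as the comparison. The assay was ChIP-seq, in which DNA bound by a protein is recovered with an antibody and sequenced, on a single group with 2 biological replicates. All animals were whole young adult hermaphrodites of strain YL563, a line whose transgene gives REC-8 that carries GFP and FLAG at its C terminus, taken 48 h after starved, bleach-synchronized L1 larvae were set to grow. Sheared chromatin was precipitated with an antibody against GFP, per the description; another label names the antibody rec-8. Whole animals hold the germ line and the soma, so the share of the signal that came from meiotic nuclei cannot be told apart from the rest, and peak lists give no expression by which to check the stage or tissue.

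In C. elegans meiosis each chromosome pairs and synapses with its partner through a pairing centre, a region near a single end that holds many short DNA repeats. Zinc-finger proteins bind these repeats: HIM-8 on X, ZIM-1 on II and III, ZIM-2 on V and ZIM-3 on IV among others. The bound ends attach through SUN-1 and ZYG-12 to the nuclear envelope, and the kinases CHK-2 and PLK-2 act there. REC-8 is a kleisin, the subunit that closes the cohesin ring, and REC-8 cohesin holds sister chromatids together and forms part of the meiotic chromosome axis. The comparison asks whether REC-8::GFP peaks were denser, stronger or at other genes where pairing begins than at the other end of the same chromosome.

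The sequences under the strongest reproducible peak of each pairing-centre end are shown first, because they show which kinds of locus carried the highest signal there. Each is the 200 bp around the summit on the plus strand of WBcel235, from the RefSeq assembly, with the core of the B box (GGTTCGA on either strand, an internal promoter element of tRNA genes that recruits RNA polymerase III factors) in capitals where it occurs. Windows that overlap an annotated UTR were passed over. The II window (chrII:1519984-1520183) lies at the ncRNA gene Y51H7BR.9 and the tRNA gene Y51H7BR.t1. The III window (chrIII:502691-502890) lies at the snoRNA gene F30H5.4, and the IV window (chrIV:654818-655017) at rpl-15, a protein of the large ribosomal subunit. The V window (chrV:19643097-19643296) lies at the snoRNA gene Y43F8C.22, with the core on the minus strand, and the X window (chrX:489798-489997) at F38G1.t2, an aspartate tRNA gene.
II, Y51H7BR.9: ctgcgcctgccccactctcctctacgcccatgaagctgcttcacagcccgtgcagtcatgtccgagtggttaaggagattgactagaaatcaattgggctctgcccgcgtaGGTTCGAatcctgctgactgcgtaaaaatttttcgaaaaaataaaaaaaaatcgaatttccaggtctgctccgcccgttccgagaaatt
III, F30H5.4: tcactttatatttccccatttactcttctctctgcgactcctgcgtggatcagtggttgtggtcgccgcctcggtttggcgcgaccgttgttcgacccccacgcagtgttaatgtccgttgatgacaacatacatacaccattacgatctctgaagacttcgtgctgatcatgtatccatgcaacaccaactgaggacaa
IV, rpl-15: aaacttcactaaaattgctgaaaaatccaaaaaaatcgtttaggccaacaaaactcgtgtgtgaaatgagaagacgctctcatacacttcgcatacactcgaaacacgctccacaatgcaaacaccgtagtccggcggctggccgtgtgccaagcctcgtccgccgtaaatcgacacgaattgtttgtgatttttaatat
V, Y43F8C.22: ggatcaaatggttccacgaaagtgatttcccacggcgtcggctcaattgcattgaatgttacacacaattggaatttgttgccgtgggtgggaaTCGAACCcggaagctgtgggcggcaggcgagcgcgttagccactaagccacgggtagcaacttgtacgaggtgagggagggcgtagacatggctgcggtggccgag
X, F38G1.t2: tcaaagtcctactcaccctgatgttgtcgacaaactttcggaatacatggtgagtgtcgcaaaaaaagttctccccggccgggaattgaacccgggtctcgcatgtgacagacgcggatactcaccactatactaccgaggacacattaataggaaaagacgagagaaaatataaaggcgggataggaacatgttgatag

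The pairing-centre ends held fewer REC-8::GFP peaks than the opposite ends on II, III and X, and more on IV. On II the pairing-centre end had 265 peaks in the pooled list, 296 in replicate 1 and 313 in replicate 2, against 468, 488 and 449 at the opposite end. The pooled ratio was 0.566 (95% interval 0.485 to 0.660, adjusted p = 2.99e-13, exact two-sided binomial test, adjusted over 5 chromosomes), and the pairing-centre end of II was lower in both replicates. On III the pairing-centre end had 336 pooled peaks, 366 in replicate 1 and 374 in replicate 2, against 468, 490 and 508 at the opposite end. The ratio on III was 0.718 (0.622 to 0.828, adjusted p = 9.15e-06, exact binomial test). Chromosome X had 279 pooled peaks at the pairing-centre end and 338 at the opposite end, a ratio of 0.825 (0.702 to 0.970, adjusted p = 0.0243, exact binomial test). In the replicates X had 332 and 318 peaks at the pairing-centre end against 390 and 344 at the opposite end, and the difference passed the exact binomial test in replicate 1 (adjusted p = 0.0338) but not in replicate 2 (adjusted p = 0.414).

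Chromosome IV ran the other way in the pooled list and in both replicates. Its pairing-centre end had 359 pooled peaks, 376 in replicate 1 and 451 in replicate 2, against 290, 311 and 358 at the opposite end. The pooled ratio was 1.24 (1.06 to 1.45, adjusted p = 0.0126, exact binomial test). In content, the opposite end of IV differs from the other 9 ends: it holds 5399 genes of piRNAs, germline small RNAs known for silencing transposons, and 32.5% of its bases are G or C, where the pairing-centre end of IV holds 4 piRNA genes and has 36.0% GC. Whether this content plays a part in the ratio was not tested. On V the counts were close, with 333 pooled peaks at the pairing-centre end and 359 at the opposite end (ratio 0.928, 0.797 to 1.08, adjusted p = 0.342, exact binomial test). In replicate 1 alone the V ratio of 0.850 passed (adjusted p = 0.0309, exact binomial test), and in replicate 2 the ratio of 0.961 did not.

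**Figure D1:**
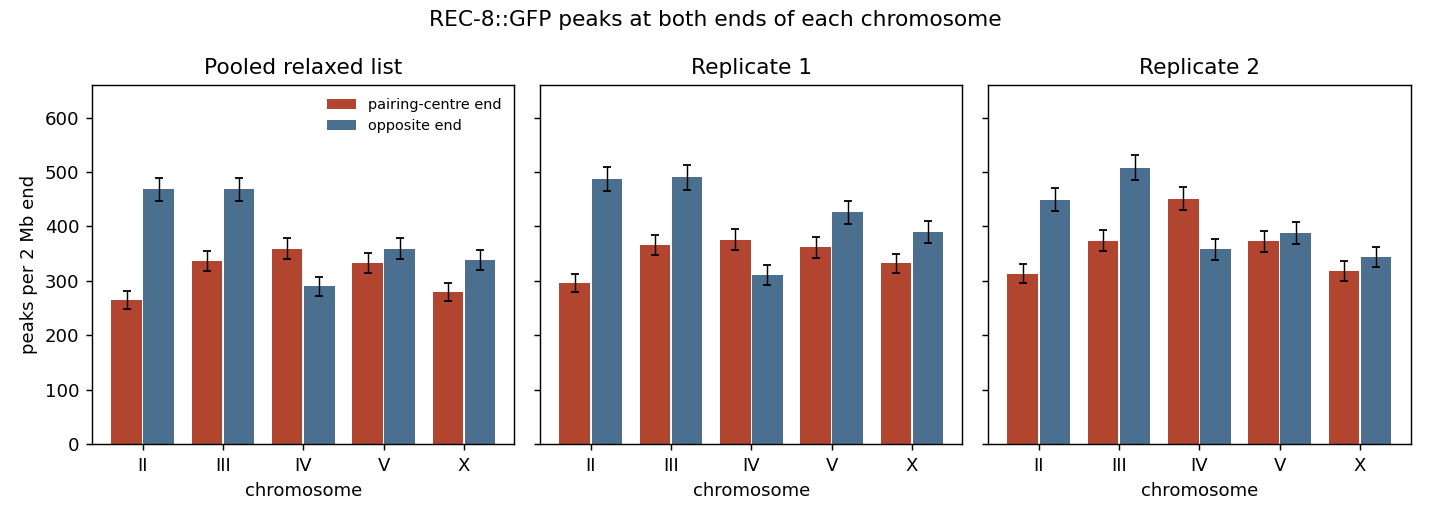
Peaks in the 2 Mb at the pairing-centre end and at the opposite end of 5 chromosomes, in the pooled list and in each replicate. Bars are counts and the error bars are the square root of the count, which covers counting error only. The pairing-centre bar is the lower of the pair on II, III, V and X and the higher on IV in all 3 panels.

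Summed over the 5 chromosomes, the pairing-centre ends had 157.2 pooled peaks per Mb and the opposite ends 192.3, against 188.8 over all nuclear chromosomes. The summed ratio was 0.817 (0.764 to 0.874, p = 3.12e-09, exact two-sided binomial test). It was 0.823 in replicate 1 (1732 peaks against 2105) and 0.894 in replicate 2 (1829 against 2047), with exact binomial p of 1.85e-09 and 0.00049. These tests take peaks as units, not animals or chromosomes. With the chromosomes as units, 4 lower and 1 higher, the exact two-sided sign-flip permutation test gave p = 0.25, and 5 chromosomes cannot give less than 0.0625. A lower count at the pairing-centre end passed the binomial test in both replicates on II and III. V and X were also lower in both replicates but passed in replicate 1 only. IV was higher, so the difference was not shared by all 5 chromosomes.

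Along each chromosome, cut into windows of 2 Mb from the pairing-centre tip, the pairing-centre window of II was the lowest of 7, that of III the lowest of 6 and that of X the lowest of 8, in the pooled list and in each replicate. On II the other windows reached 514 pooled peaks and the median window held 414. The pairing-centre window of IV ranked 7 of 8 from the highest in the pooled list, and also in replicate 1, but 4 of 8 in replicate 2, where it held 451 peaks and the median window 447.5. Chromosome V ranked 5 of 10. Per Mb, the pairing-centre end had 132.5 pooled peaks on II against 205.2 outside both ends, 168.0 against 249.7 on III, 179.5 against 193.3 on IV, 166.5 against 154.5 on V and 139.5 against 157.0 on X.

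By distance from the tip, the gap summed over the 5 chromosomes was widest at the outermost and the innermost 250 kb. In the first 250 kb the 5 pairing-centre ends together held 183 pooled peaks, 197 in replicate 1 and 234 in replicate 2, against 291, 323 and 299 at the opposite ends. Between 500 and 750 kb the counts were 198 pooled peaks at the pairing-centre ends and 211 at the opposite ends, and in replicate 2 they were 222 and 227. In the last 250 kb of the 2 Mb the pairing-centre ends held 160 and the opposite ends 268. Single chromosomes differed in these gaps. The pooled gap in the first 250 kb was largest on III (37 against 79) and X (5 against 37), and II had 52 against 50. In the last 250 kb it was largest on II (8 against 69), and IV went the other way (45 against 33). Just past the inner border of the pairing-centre ends, the next 250 kb held 159 pooled peaks with a median signal of 30.2, beside 160 with a median of 28.5 just inside it. The summed pooled count thus did not step at the border. Outside against inside, replicate 1 had 194 and 189 peaks, replicate 2 had 193 and 176, and the reproducible set had 1 and 7. Single chromosomes were not compared across the border.

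**Figure D2:**
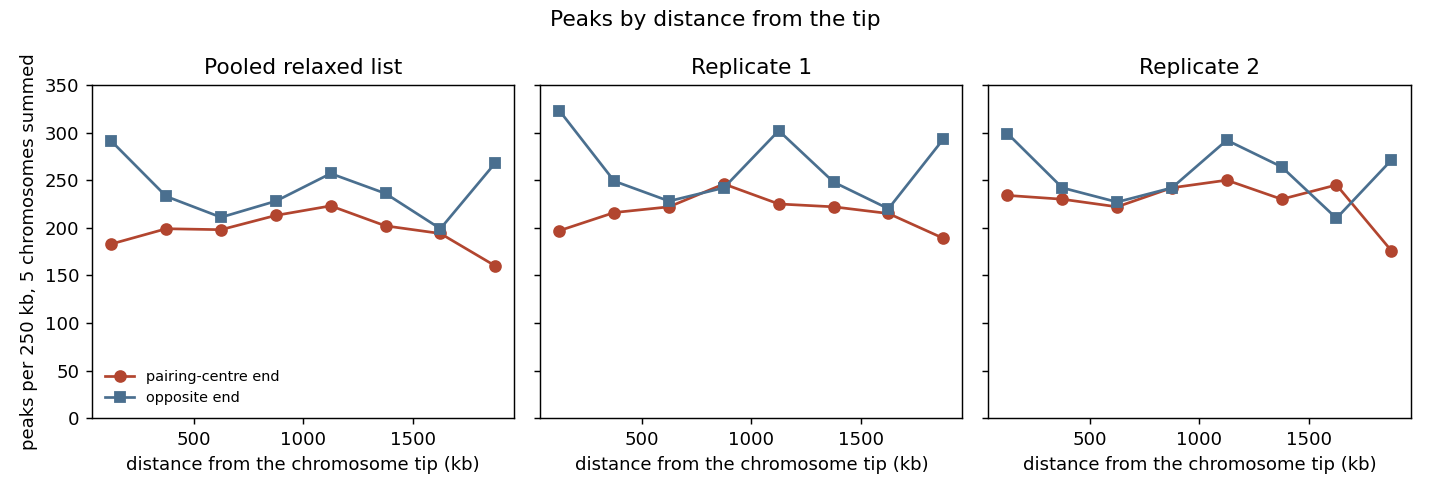
Peaks per 250 kb by distance from the chromosome tip in kb, summed over 5 chromosomes, at the pairing-centre ends (circles) and the opposite ends (squares), in the pooled list and in each replicate. The pairing-centre line lies lowest in the last 250 kb in all 3 panels, and the opposite-end line is high in the first 250 kb, with 291 pooled peaks.

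The median strength of the peaks was lower at the pairing-centre end of II, III and V in the pooled list and in both replicates. The pooled difference was largest on II. Each signal is a value that the deposited lists give a peak, and it is comparable only within a list. The median pooled signal was 28.6 at the pairing-centre end of II against 31.1 at its opposite end, 30.2 against 31.1 on III, 30.4 against 30.5 on IV, 30.2 against 30.5 on V and 30.6 against 30.3 on X. On II that is a median percentile of 37.6 against 50.4 in the pooled list. In replicate 1 the median on II was 19.2 against 19.8, and in replicate 2 it was 15.3 against 16.2. On III these were 20.01 against 20.04 and 15.5 against 16.6, and on V 19.1 against 19.8 and 15.6 against 15.9. IV was higher at the pairing-centre end in both replicates, with 20.2 against 19.5 and 16.0 against 15.3. X was higher in replicate 1 (20.2 against 20.0) and lower in replicate 2 (15.5 against 16.1). The mean difference over chromosomes was -0.678 ± 1.08 (SD, n = 5, exact sign-flip permutation p = 0.25), a test that cannot pass at 0.05 with 5 chromosomes. In replicate 1 it was -0.0702 (exact sign-flip permutation p = 0.9375) and in replicate 2 -0.419 (p = 0.25, the same exact test). Members ran from a signal of 23.6 to 222.1, and 140 of the 1572 (8.91%) were among the 1896 strongest peaks of the pooled list, against 188 of 1923 (9.78%) at the opposite ends.

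Among the pooled peaks, 52 members belonged to the reproducible set that the authors chose by the irreproducible discovery rate (IDR), against 58 at the opposite ends. Over all chromosomes 3.2% of pooled peaks are in that set, and the share of members was 52 of 1572, so the members sit at the background. The summed ratio was 0.897 (0.605 to 1.33, p = 0.634, exact binomial test). On II a single reproducible peak lay in the pairing-centre end and 10 in the opposite end (unadjusted p = 0.0117, adjusted p = 0.0586, exact binomial test). III had 17 and 12, IV 18 and 16, V 5 and 5, and X 11 and 15 at the pairing-centre and the opposite end. Apart from II, the interval of each ratio included 1. The median pooled signal of these peaks was 106.8 at the pairing-centre ends and 105.9 at the opposite ends.

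A summit within 100 bp was listed in both replicates for 342 members (21.8%, interval 19.7 to 23.9), against 429 opposite-end peaks (22.3%), and 23.0% of the whole pooled list. Another 269 members (17.1%) had no such summit in either replicate. Of the 52 reproducible members, 50 were matched in both replicates, against 54 of 58 at the opposite ends. On II 45 of 265 members (17.0%) were matched in both, against 111 of 468 (23.7%), and on X the order was the other way, with 65 of 279 (23.3%) against 59 of 338 (17.5%). Most relaxed members were thus seen near the same position in 1 replicate only. The recurrence of the reproducible ones is no separate result, since IDR chooses peaks by how well they recur.

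**Figure D3:**
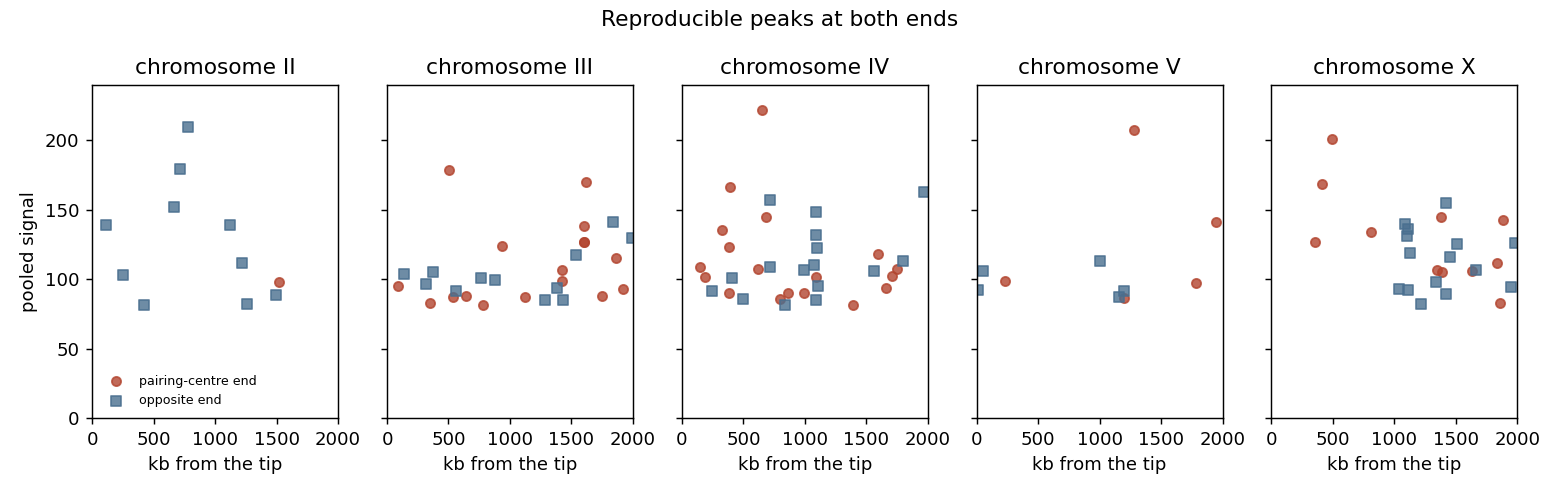
Pooled signal (the authors' value for each peak, no unit) of the 52 reproducible peaks at pairing-centre ends (circles) and the 58 at opposite ends (squares), by distance from the tip in kb, for each chromosome. A single circle stands on II, and the highest circles are at signals of 222.1 on IV, 207.3 on V and 201.0 on X.

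The strongest members lay at genes for ribosomal proteins, tRNAs and snoRNAs. The peak at rpl-15 on IV had a pooled signal of 222.1, with 106.9 in replicate 1 and 111.1 in replicate 2, and ranked 52 and 48 in those lists. The peak at the snoRNA gene Y43F8C.22 on V, of a class whose products direct the modification of rRNA, had 207.3, with 116.3 in replicate 1 and 100.9 in replicate 2. Its summit lay 10 bp from the gene's start. The peak at F38G1.t2 on X had 201.0, with 79.1 in replicate 1 and 124.1 in replicate 2, and egl-17, a fibroblast growth factor ligand, also starts within 500 bp of it. The snoRNA peak F30H5.4 on III had 178.5, with 127.0 in replicate 1 (rank 35) and 51.8 in replicate 2 (rank 415), so its place differed most between replicates among these 5. The only reproducible peak of the II end, at Y51H7BR.9, had 98.0, with 53.7 in replicate 1 and 50.7 in replicate 2.

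The next peaks of each end were of the same kinds, with coding genes among them. On III they were at Y22D7AL.10 (170.4), at the ncRNA gene Y22D7AL.17 beside the tRNA genes Y22D7AL.t3 and Y22D7AL.t4 (138.5), and upstream of sms-3, of the sphingomyelin synthase family (127.1). On IV they were at ears-2, a mitochondrial glutamyl-tRNA synthetase (166.2), at F41A4.3 beside the tRNA gene F41A4.t1 (144.6), and at K02D7.8 beside the tRNA gene K02D7.t1 and grl-26, of the Hedgehog-related family (135.4). On V they were at sws-1 and mrps-35 (141.5), at F53F8.t1, a cysteine tRNA gene (98.7), and at Y39B6A.t10, a glutamate tRNA gene (97.5). On X they were tRNA genes without exception among the 4 highest: R04A9.t1 for glutamine (168.8), F56C3.t1 for glycine (145.0) and Y59E1B.t2 for proline (142.9) followed F38G1.t2.

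The highest signal at the opposite ends was 209.7, beside 222.1 at the pairing-centre ends, but single chromosomes differed, with 98.0 at the pairing-centre end against 209.7 at the opposite end on II and 207.3 against 113.0 on V. The highest peaks lay at K10H10.11 (209.7) and mog-4, a helicase of the sperm-to-oocyte switch (179.8), on II, and at Y56A3A.7 (141.6) and C24H11.13 beside the tRNA gene C24H11.t1 (129.6) on III. On IV they lay in an intron near ari-1.4, of the Ariadne ubiquitin ligase family (163.1), and at Y43D4A.t1, a glycine tRNA gene (157.0). On V they lay at Y50D4C.5 (113.0) and in an intron within the chemoreceptor gene srt-52, 2553 bp from a start (105.8). On X they lay at T01B4.t1 for valine (155.1) and C06G1.t1 for histidine (139.9).

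Transfer RNA genes at the pairing-centre ends had a reproducible summit within 500 bp of their start in 19 of 42 cases (45.2%, interval 29.8 to 61.3), against 26 of 73 at the opposite ends (35.6%, 24.7 to 47.7). The share over all chromosomes was 45.9%. In the pooled list 34 of 42 (81.0%) and 61 of 73 (83.6%) had a summit, where 88.2% do over all chromosomes. The shares on single chromosomes were 1 of 2 at the pairing-centre end of II against 0 of 2, 4 of 7 against 5 of 7 on III, 5 of 9 against 8 of 20 on IV, 3 of 7 against 0 of 1 on V and 6 of 17 against 13 of 43 on X. The mean difference over chromosomes was 19.8 percentage points (exact sign-flip permutation p = 0.1875), a mean in which V and II, with few genes, count as much as the others. The difference turned to -0.428 points with ends of 3 Mb.

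Genes for snoRNAs had a reproducible summit in 4 of 33 cases at the pairing-centre ends and 4 of 28 at the opposite ends, where 19.1% do over all chromosomes. Besides F30H5.4 and Y43F8C.22, the snoRNA gene Y71D11A.7 on III had a peak of 87.2, with 43.0 in replicate 1 and 45.2 in replicate 2. Among ribosomal protein genes, rpl-15, rps-24 and rps-28, all on IV, were 3 of the 6 in the pairing-centre ends (interval 11.8 to 88.2%), against 0 of 3 in the opposite ends and 14 of 78 in the genome. The peak at rps-24, a small-subunit protein, had 123.1, with 45.3 in replicate 1 and 79.7 in replicate 2. A second reproducible peak overlapped it, with its summit nearest to the pseudogene pqbp-1.2, and neither replicate listed a summit within 100 bp of that one. The peak at rps-28 had 93.6, with 44.4 in replicate 1 and 50.9 in replicate 2. The nuclear hormone receptor gene nhr-41 shared a peak of 81.5 with the glutamate tRNA gene Y104H12A.t1. MicroRNA genes (0 of 29), C-type lectin genes (0 of 28), chemoreceptor genes (0 of 56) and collagen genes (0 of 16) in the pairing-centre ends had no reproducible summit within 500 bp of a start. Those in the opposite ends had none so near a start either. In the genome 4 of 261, 1 of 239, 2 of 1369 and 3 of 156 of these genes have one, so the zeros are near the background.

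Protein-coding genes were less often at a peak in the pairing-centre ends of II and III. These ends also held fewer pooled peaks. The share of their summits at a protein-coding start was 33.6% against 30.6% on II and 27.4% against 28.8% on III. Whether the share of genes was lower beyond the lower count of peaks was not tested. In all, 387 of 1762 genes (22.0%, interval 20.1 to 24.0) had a pooled summit within 500 bp of a start, against 449 of 1512 at the opposite ends (29.7%, 27.4 to 32.1) and 27.4% over all chromosomes. On II it was 81 of 461 (17.6%) against 109 of 314 (34.7%), and on III 85 of 332 (25.6%) against 130 of 309 (42.1%). On IV it was 94 of 315 (29.8%) against 60 of 256 (23.4%). The order on II, III, IV and V was the same in both replicates, while on X the pairing-centre end was lower in the pooled list (19.0% against 22.5%) and higher in replicate 1 (23.9% against 21.2%) and replicate 2 (22.2% against 21.6%). The mean difference over chromosomes was -7.07 points (exact sign-flip permutation p = 0.25). For reproducible summits the counts were 31 of 1762 (1.76%) and 29 of 1512 (1.92%), where 1.6% of all protein-coding genes have one.

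The pairing-centre ends of II and III hold large families of F-box genes, which encode adaptors of ubiquitin ligases, and II also holds genes of BATH or MATH domain proteins. Of the 155 F-box genes in the pairing-centre ends, 12 (7.74%, interval 4.06 to 13.1) had a pooled summit, against 4 of 12 at the opposite ends (33.3%, 9.92 to 65.1) and 11.5% of F-box genes in the genome. On II it was 6 of 70 and on III 4 of 44. Of the 38 BATH or MATH genes, all on II, 0 had a pooled summit (interval 0 to 9.25%), where 6 of 73 do in the genome, but each replicate alone had 4 of 38 (10.5%). No reproducible summit lay at a gene of either family in the pairing-centre ends, where 1 of 395 has one in the genome. Without both families the share on II was 75 of 353 (21.2%) against 108 of 311 (34.7%), on III 81 of 288 (28.1%) against 129 of 305 (42.3%), and the mean difference over chromosomes was -5.40 points (exact sign-flip permutation p = 0.3125). This restriction was chosen after the data were seen. With the families left out, the share was still lower at the pairing-centre ends of II and III, and the part of the families in it was not tested.

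**Figure D4:**
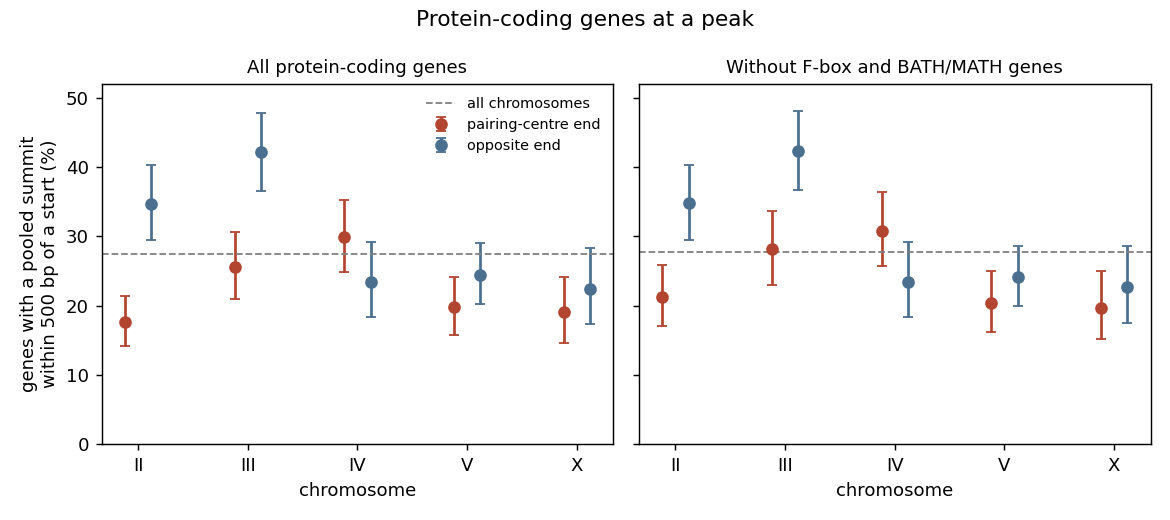
Share of protein-coding genes (%) with a pooled summit within 500 bp of a start at the pairing-centre end (left point of each pair) and at the opposite end (right point), for each chromosome, with all genes and without F-box and BATH/MATH genes. Error bars are exact 95% binomial intervals and the dashed line is the share over all chromosomes; on II and III the intervals of the 2 ends do not overlap in either panel.

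The gene context of the members differed from that of the opposite ends on single chromosomes, in different directions, and the summed shares lay close together. Each summit was placed in the first class it met, in the order given here. Of the 1572 members 422 (26.8%) had a summit within 500 bp of a protein-coding start, 105 (6.68%) lay at a gene for another non-coding RNA, piRNAs left out, 352 (22.4%) in exons, 345 (21.9%) in introns and 348 (22.1%) in intergenic sequence. At the opposite ends the shares were 27.3%, 6.50%, 23.8%, 20.9% and 21.5%. The whole pooled list had 32.0% at protein-coding starts and 17.5% in intergenic sequence. On IV 19.8% of members were intergenic (interval 15.8 to 24.3), against 31.7% at the opposite end (26.4 to 37.4), and the replicates had 20.2% against 32.5% and 19.5% against 35.2%. On V 23.1% were at protein-coding starts against 32.6%, and 26.4% in introns against 16.4%. On X 7.89% were at RNA genes against 13.9%, with 5.42% against 13.1% in replicate 1 and 8.81% against 17.4% in replicate 2. The mean difference over chromosomes in the share at protein-coding starts was 0.0787 points, while the summed shares had the other sign, and no class passed the exact sign-flip permutation test (p of 0.5625 to 1), which 5 chromosomes cannot pass at 0.05. Of the reproducible members 24 of 52 lay at protein-coding starts, and 17 of the rest at RNA genes, against 26 and 23 of 58. Over the whole reproducible set the shares were 42.9% at protein-coding starts and 43.6% at RNA genes. The share at RNA genes was below that at both kinds of end, with 32.7% at the pairing-centre ends and 39.7% at the opposite ends. Counted without that order, 18 of 52 had a tRNA start within 500 bp and 4 a snoRNA start, against 25 and 4 of 58. Here too the signs differed. The summed share at protein-coding starts was higher in the pairing-centre ends (46.2% against 44.8%). The mean over chromosomes was lower (-14.1 points, exact sign-flip permutation p = 0.4375), with II, III and V lower and IV and X higher. In that mean II counts as much as the others, though its share was 0 of 1 peak against 6 of 10. On X, 6 of the 11 reproducible members had a tRNA start within 500 bp, against 12 of 15 at the opposite end.

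The bases under the summits were like those of the opposite ends in the pooled list, with 40.2% GC in 200 bp against 40.3%, and 38.6% over the whole list. In reproducible peaks the GC was 46.3% against 42.9%, and 43.1% over the whole set. The B box core GGTTCGA, searched on both strands, was in 20 of 52 reproducible members (38.5%, interval 25.3 to 53.0), in 13 of 58 at the opposite ends (22.4%, 12.5 to 35.3) and in 28.7% of the whole set. It was in 2.13% of all 200 bp windows of the pairing-centre ends and 1.33% of those of the opposite ends. The intervals overlap, and no test was made.

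The repeats by which a pairing centre is known were then set beside the peaks. For each pairing-centre end, the 12-base word that begins with TTGGT and has the most copies there is shown, with those 5 bases in capitals; these words were chosen after the data were seen.
II, 93 copies: TTGGTctgctag
III, 191 copies: TTGGTctgctaa
IV, 189 copies: TTGGTtgaggct
V, 87 copies: TTGGTcgctgct
X, 158 copies: TTGGTcagtgca
Together they have 718 copies on either strand in the pairing-centre ends and 2 in the opposite ends. They lie in clusters, so copies are not independent, and 67.7% of those on X and at least 94.6% of those on each other chromosome are in sequence that RefSeq marks as repeated. How well reads could be placed there was not tested.

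Over the 5 ends together, summits lay near a smaller share of these copies than of the bases, with X as an exception. A pooled summit lay within 500 bp of 52 of the 718 copies (7.24%), where 14.5% of the bases of the ends are so near to a summit. In replicate 1 it was 61 copies (8.50%, with 15.6% of bases) and in replicate 2 91 copies (12.7%, with 16.4% of bases). On V 0 of 87 copies had a pooled summit near, on IV 5 of 189 and on III 10 of 191. Chromosome X had 31 of 158 copies (19.6%) near a summit, with 12.8% of bases, and 18 of its 279 members had a copy near. In replicate 1 the share on X was 15.8% with 15.1% of bases, and in replicate 2 it was 20.9% with 14.4%. On II replicate 2 alone stood above its bases, with 24 of 93 copies (25.8%) against 14.1%, where replicate 1 had 9. No reproducible summit lay within 500 bp of any of the 718 copies; such summits are within 500 bp of 0.511% of the bases. The nearest one was 999 bp from a copy on III, 1438 bp on V, 1558 bp on IV, 10120 bp on X and 80154 bp on II.

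**Figure D5:**
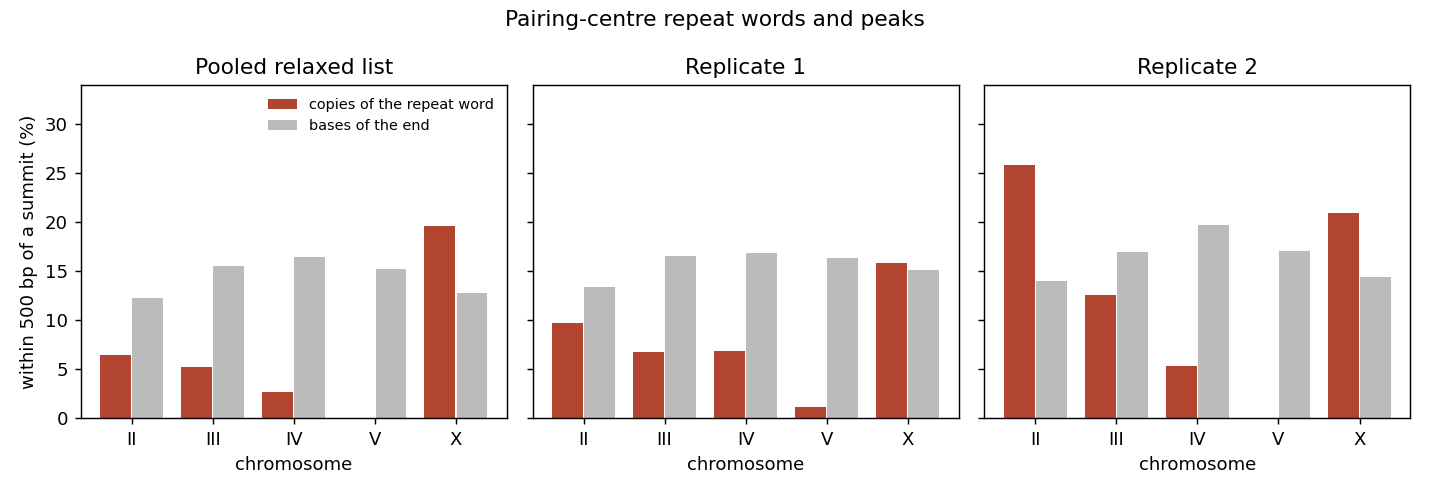
Share (%) of the copies of the pairing-centre repeat word of each chromosome that lie within 500 bp of a summit, beside the share of all bases of the same 2 Mb end that do, in the pooled list and in each replicate. The copies stand above the bases on X in all 3 panels, on II in replicate 2, and below them elsewhere.

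A second set of words was taken by copy number alone, each with at least 4 times as many copies in the pairing-centre end as in the opposite end. Its choice did not use the known repeat, and it is in lower case throughout as no part is marked. The sets are not independent on III and V. On V both words hold cgctgct, with first copies at bases 18958762 and 18958937. On III the word read on the other strand begins with tgctaa, which ends the TTGGT word. Its copies there ran from base 78764 to 883138, beside 78619 to 883113 for the TTGGT word.
II, 418 copies: cgtggtgagacc
III, 383 copies: aaatatttagca
IV, 218 copies: atttgccggaaa
V, 658 copies: gggcgctgctaa
X, 261 copies: cacagagagtaa
They had 1938 copies in the pairing-centre ends and 103 in the opposite ends. A pooled summit lay within 500 bp of 76 of them (3.92%), and a reproducible summit near 0. In replicate 1 it was 100 copies (5.16%) and in replicate 2 142 copies (7.33%). On II 0 of 418 copies and on X 1 of 261 had a pooled summit near, and 40 of 383 on III. Replicate 2 had 17 of 418 on II and 76 of 383 on III (19.8%, with 16.9% of bases), where replicate 1 had 0 and 54.

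Genes for the proteins that act at pairing centres lie mostly elsewhere, and their share at a pooled summit was near that of all protein-coding genes. Of 10 such genes 3 had a pooled summit within 500 bp of a start, where 27.4% of protein-coding genes do, and 0 had a reproducible one. In replicate 1 it was also 3 of 10, and in replicate 2 it was 5 of 10. These were hal-2 on III (nearest summit 103 bp away, signal 34.9), seen in both replicates, and him-8 on IV (139 bp, 25.9) and zyg-12 on II (142 bp, 32.4), seen in replicate 1 only. The genes zim-1, zim-2, zim-3, sun-1, plk-2 and hal-3 had none in the pooled list, though replicate 2 listed one at zim-2, zim-3 and hal-3. The kinase gene chk-2 was the 1 member of this list inside a pairing-centre end, on V, with the nearest pooled summit 3482 bp from a start and a summit within 500 bp in replicate 2 only. Of 12 axis and synaptonemal complex genes, 3 had a pooled summit, namely coh-3 and coh-4, which encode the other meiotic kleisins, and syp-4, a protein of the central region of the synaptonemal complex. These 3 were named after their values were seen. None of the 12 lies in either kind of end and 0 had a reproducible summit.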

How the data were processed

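REC-8::GFP was profiled by ChIP-seq in 2 biological replicates of 1 group. The authors deposited peak lists, per the notes deposited with the files: a relaxed list for each replicate, another for both together, and a reproducible set chosen from it by IDR. The list for both together is titled as peaks and background, the input for IDR. A control file entered the peak calls and is not analysed here. The deposited signal column is the authors' value for each peak, and deposited q-values are given as −log10. No read counts come with the lists, so depth is unknown. Aligner, peak caller, IDR threshold and signal scaling: not given in the sources used here.

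Lists on ce11 were joined to WBcel235 and Ensembl release 115, with names from RefSeq for 46881 of 46926 genes. A peak was placed by its summit. Classes were taken in the order protein-coding start (within 500 bp), non-coding RNA gene start other than piRNA (within 500 bp), exon, intron and intergenic. Counts were compared by exact two-sided binomial tests, with Benjamini-Hochberg adjustment over 5 chromosomes, and differences over chromosomes by exact two-sided sign-flip permutation tests. Intervals of ratios and shares are exact 95% binomial (Clopper-Pearson) intervals and cover counting error only. Functions were tested on simulated data. Named genes were those nearest to the 4 reproducible peaks of highest signal in each pairing-centre end and the 2 in each opposite end, up to 3 of highest signal of each list, and the pairing-centre proteins. Words of 12 bases were counted on both strands, and low-complexity words were left out. The members and lists were chosen with earlier results of these data known. Other end lengths, distances, builds, signal cutoffs and subsets of chromosomes were also tried. Python 3.11.15, numpy 2.4.6, pandas 2.3.3, scipy 1.17.1 and matplotlib 3.10.9 were used.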

Additional observations from a re-analysis of the deposited data

Results flagged for a closer look

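The ratio of peaks at the pairing-centre end to peaks at the opposite end was above 1 on IV in both replicates, 1.21 in replicate 1 and 1.26 in replicate 2, while it was below 1 on II, III, V and X in both. The difference between IV and the other chromosomes was not tested. Of the 10 ends compared, the opposite end of IV is the one with 5399 piRNA genes and a GC content of 32.5%; the part of this content in the ratio was not tested.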

How the results depend on the processing

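The lower summed count of pooled peaks at the pairing-centre ends kept its direction and passed the exact binomial test under all 13 alternatives, among them ends of 1 and 3 Mb, the ce10 lists, counts per protein-coding gene and each chromosome left out. That test takes peaks as units. With chromosomes as units, the exact sign-flip permutation p ran from 0.125 to 0.5 under these alternatives, and so few chromosomes cannot reach 0.05. For the reproducible set the ratio was 1.14 with ends of 1 Mb and 1.06 without chromosome II. In the 606 top peaks of a single replicate it was 0.656 without replicate 2, which passed (p = 0.046, exact binomial test), and 0.787 without replicate 1, which did not. The mean difference over chromosomes in median signal of reproducible peaks, in the authors' signal, was -2.96 (exact sign-flip permutation p = 0.8125). Its sign turned in some settings. It was 3.18 without chromosome II and between 1.20 and 4.50 in the top peaks of single replicates, and the difference in mean log2 signal was 0.045. The difference in the share at protein-coding starts was -1.90 points with ends of 3 Mb for pooled peaks and 0.642 points with starts within 1000 bp for reproducible ones. The tRNA difference was -0.428 points with ends of 3 Mb. None of the values of signal, gene context and tRNA genes passed the exact sign-flip permutation test under any alternative, where 5 chromosomes cannot reach the threshold. Members with a summit in both replicates were 13.4% within 50 bp and 32.6% within 250 bp. The causes of these changes were not tested, beyond the fewer peaks that shorter ends, single chromosomes and smaller distances leave. With ends of 1 Mb only 3 chromosomes had reproducible peaks at both ends for signal and context.

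No paired analysis was possible because the samples form 1 group. Depth is unknown, so whether a missing peak reflects depth cannot be told apart from the absence of binding. Chromosome ends differ in genes, GC content and repeats as well as in pairing, and 5 chromosomes limit every comparison between the ends.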
